A study of Homo sapiens with 9 samples.

Results

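The genes described here are MLXIP (which encodes MondoA), MLX, TXNIP and the arrestin-domain genes ARRDC1, ARRDC2, ARRDC3 and ARRDC4. They were taken by symbol from a table of FPKM (fragments per kilobase of transcript) in MOLT4 cells. How that table was scaled between libraries was not stated. All 7 symbols were among the 23621 gene rows, and all 7 were among the 12301 genes tested. The set was chosen by pathway with the FPKM differences between these same groups already known, so its values are given as a description, without p-values. MOLT4 is a long-established cell line from a human T-lineage acute lymphoblastic leukemia. RNA sequencing was carried out after 6 h with MI-389, which the series calls a phthalimide conjugate, with sunitinib, an inhibitor of receptor tyrosine kinases, or with 0.1% DMSO as vehicle. There were 3 libraries in each of the 3 groups.

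The compound names of the treated libraries are crossed between 2 label fields. The source field of the libraries titled MI-389 names sunitinib at 1 µM, and that of the libraries titled sunitinib names MI-389 at 0.1 µM, while the table's columns and the barcode list follow the titles. Groups are named by title throughout, and if the source field is right, each statement on one compound belongs to the other. The doses come from the crossed field and were not equal, so a difference between the treated groups is a difference of compound and dose together. The labels do not say that replicates were separate cultures, so the spread between libraries may be technical. In a bulk sample, fewer cells that express a gene and less RNA per cell cannot be told apart.

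MondoA is a basic helix-loop-helix leucine zipper transcription factor that is held mainly outside the nucleus and enters it when glucose 6-phosphate and related sugar phosphates accumulate. It binds DNA as a dimer with MLX at paired E-box-like sequences called carbohydrate response elements. TXNIP and ARRDC4 are its best known direct targets. TXNIP binds thioredoxin and promotes the removal of glucose transporters from the cell surface, so its induction restrains glucose uptake. TXNIP and ARRDC1 to ARRDC4 belong to the alpha-arrestins, adaptor proteins that bring ubiquitin ligases of the NEDD4 family to membrane proteins.

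In the MI-389-titled libraries, TXNIP, ARRDC4 and ARRDC3 stood 8.41, 12.4 and 5.34 times as high as in DMSO, while MLXIP and MLX, the sensor and its partner, had libraries that overlapped those of DMSO. ARRDC1 stood 1.46-fold lower, and ARRDC2 overlapped DMSO. In the sunitinib-titled libraries the ratios of mean FPKM to DMSO lay between 0.832 for ARRDC2 and 1.15 for ARRDC3. Where a difference is said below to pass or miss the threshold, the threshold is an adjusted p of 0.05 in limma (Benjamini-Hochberg, over all 12301 tested genes), given for context. The plot of FPKM by library shows the separation of the 3 high genes.

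**Figure D1:**
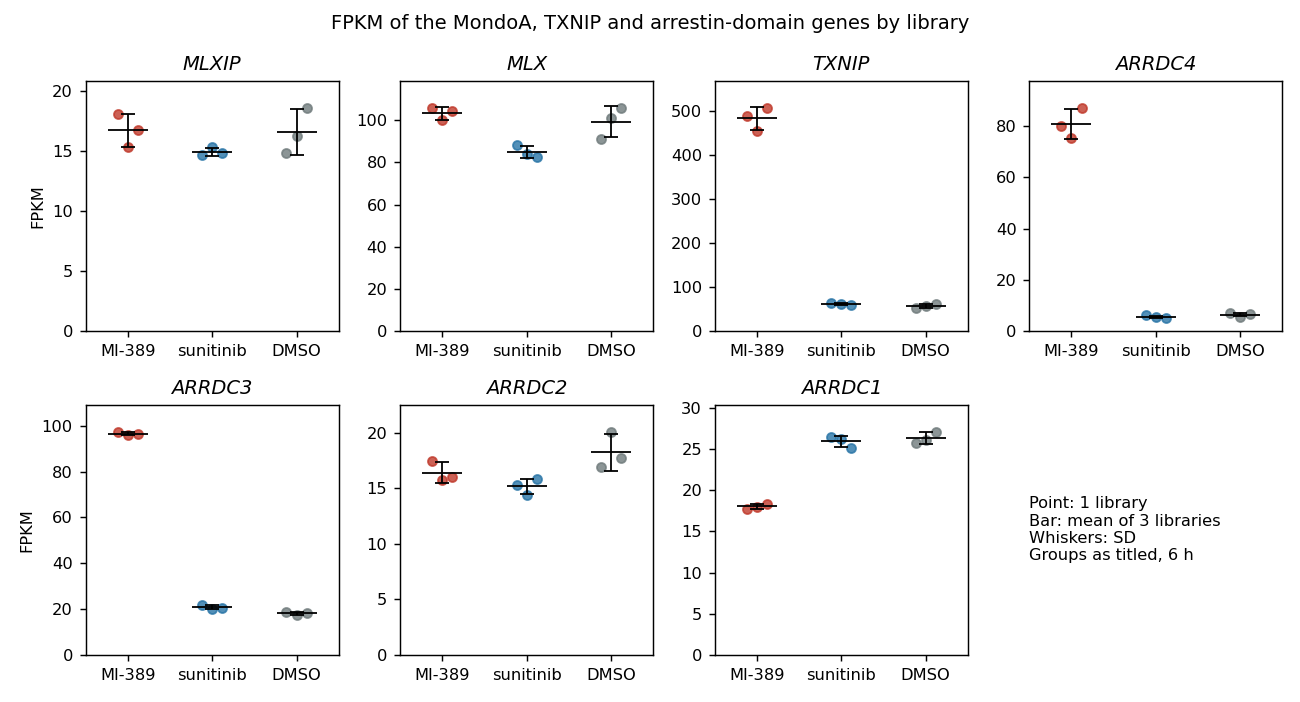
FPKM (linear axis from 0) of each gene in each library, by group; points are libraries, bars are means and whiskers are SD (n = 3). TXNIP, ARRDC4 and ARRDC3 are high in all 3 MI-389-titled libraries, ARRDC1 is low there, and MLXIP, MLX and ARRDC2 overlap between the MI-389-titled and DMSO libraries.

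The nutrient sensor itself was of moderate abundance. MLXIP had 18.1, 15.3 and 16.8 FPKM in the MI-389-titled libraries, 14.7, 15.3 and 14.8 FPKM in the sunitinib-titled libraries and 14.9, 16.3 and 18.6 FPKM in DMSO. The 3 groups overlapped, and DMSO replicate 3 was the highest library of all. The log2(FPKM + 1) difference was 0.01 (95% interval −0.18 to 0.21) for MI-389 against DMSO and −0.14 (−0.33 to 0.055) for sunitinib against DMSO. The MI-389 difference turned to −0.064 with median centring, −0.12 after quantile normalization and −0.097 after cyclic loess. It also turned negative without MI-389-titled replicate 1 (−0.040) or DMSO replicate 1 (−0.057).

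MLX, the obligate partner that MondoA shares with the MXD proteins MXD1 and MXD4, was several times more abundant. It had 105.9, 99.9 and 104.2 FPKM in the MI-389-titled libraries, 88.3, 83.9 and 82.6 FPKM in the sunitinib-titled libraries and 91.3, 100.8 and 105.7 FPKM in DMSO. The MI-389-titled libraries overlapped DMSO, and the sunitinib-titled libraries lay below all 3 controls. The differences were 0.059 (95% interval −0.079 to 0.20) for MI-389 against DMSO, which turned to −0.020 with median centring and passed the threshold after quantile normalization (0.13) and cyclic loess (0.16), and −0.22 (−0.36 to −0.083) for sunitinib against DMSO. The ratio of MLX to MLXIP in FPKM averaged 6.20 ± 0.335 in the MI-389-titled libraries, 5.69 ± 0.286 in the sunitinib-titled libraries and 6.01 ± 0.283 in DMSO (SD, n = 3 each), and these ranges overlapped. The MLX locus overlaps PSMC3IP, a recombination factor gene on the opposite strand, and with a kit that keeps no strand information the reads of the shared stretch cannot be told apart. PSMC3IP averaged 64.03 ± 1.88 FPKM in the MI-389-titled libraries, 33.8 ± 0.503 FPKM in the sunitinib-titled libraries and 53.7 ± 4.16 FPKM in DMSO, so the lowest group is the same for both genes. The part of PSMC3IP reads in the MLX values was not tested.

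The DNA upstream of the 3 high genes is shown because a carbohydrate response element near TXNIP is the textbook site of MondoA binding. RefSeq sequences on GRCh38.p14 (the submitters' processing notes name hg19) cover 250 bases before and 50 after each annotated start, and the 250 bases before the start are printed 5′ to 3′ on the strand of the gene. Capitals mark matches on either strand to CACGTG (the E-box), to the paired form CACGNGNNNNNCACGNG or to CCAAT, which reads ATTGG on the other strand and is the sequence bound by the factor NF-Y. The windows lie at chr1:145996580-145996829 (minus strand) for TXNIP, chr15:97960453-97960702 (plus strand) for ARRDC4 and chr5:91383318-91383567 (minus strand) for ARRDC3.
TXNIP: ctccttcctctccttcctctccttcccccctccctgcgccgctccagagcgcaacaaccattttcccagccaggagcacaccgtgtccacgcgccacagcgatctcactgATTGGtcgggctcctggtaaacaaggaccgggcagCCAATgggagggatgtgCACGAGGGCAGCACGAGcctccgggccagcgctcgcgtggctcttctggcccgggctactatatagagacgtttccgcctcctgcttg
ARRDC4: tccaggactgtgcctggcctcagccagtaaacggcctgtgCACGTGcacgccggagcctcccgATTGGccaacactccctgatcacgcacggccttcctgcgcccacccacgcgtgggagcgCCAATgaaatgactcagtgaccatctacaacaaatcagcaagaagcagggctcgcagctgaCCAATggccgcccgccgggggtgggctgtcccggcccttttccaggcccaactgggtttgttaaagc
ARRDC3: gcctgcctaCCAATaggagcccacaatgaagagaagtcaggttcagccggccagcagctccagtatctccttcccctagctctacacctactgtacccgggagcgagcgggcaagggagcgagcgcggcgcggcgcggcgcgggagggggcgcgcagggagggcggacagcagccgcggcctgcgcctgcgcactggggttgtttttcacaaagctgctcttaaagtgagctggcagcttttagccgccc

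The TXNIP window printed above holds the paired form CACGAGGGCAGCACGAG, from position −88 to −72 counted from the start. That form was present in 20 of the 35116 windows of the same length in the RefSeq table (0.057%). The ARRDC4 window holds no paired form but has CACGTG from −210 to −205, a sequence present in 7.26% of windows. Neither was found in the window of the other annotated TXNIP start or in either ARRDC3 window. MLX itself has CACGTG from −50 to −45, and the windows of MLXIP, ARRDC1 and ARRDC2 have none of these. The opposed layouts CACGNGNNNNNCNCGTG (0.0228% of windows) and CNCGTGNNNNNCACGNG (0.0313%) were absent from all member windows.

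CCAAT was added to the search after the windows had been seen. TXNIP has it at 2 places, from −140 to −136 and from −105 to −101, and ARRDC4 at 3 places, from −187 to −183, from −128 to −124 and from −67 to −63. At least 1 CCAAT was present in 34.6% of all windows and 2 or more in 10.8%. ARRDC3 has a single match in the window printed above. The windows of the other ARRDC3 start and of the other TXNIP start have none. MLX, MLXIP, ARRDC1 and ARRDC2 have 1 match each in a window. These matches describe letters in a window of 300 bases, and binding was not measured.

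**Figure D2:**
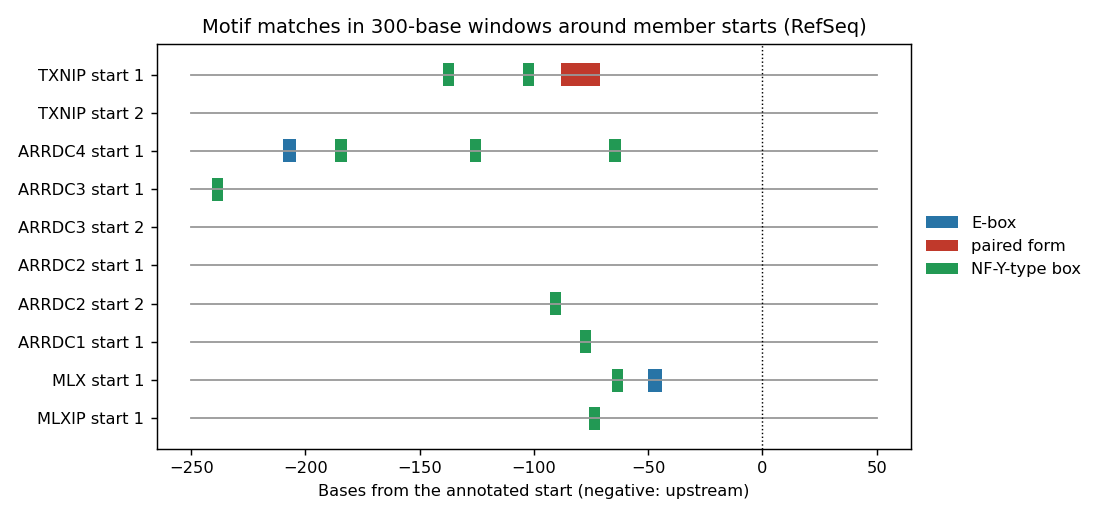
Matches to the E-box, the paired form and CCAAT (drawn as NF-Y-type box) in the windows of every annotated start of the 7 genes; the x axis is distance in bases from the start, and each coloured block is a match. The paired form is drawn in the window of TXNIP start 1 alone, between −88 and −72, and 3 NF-Y-type boxes are drawn for ARRDC4.

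TXNIP, the thioredoxin-binding alpha-arrestin, had 490, 456 and 507 FPKM in the MI-389-titled libraries, 63.8, 60.7 and 60.2 FPKM in the sunitinib-titled libraries and 53.6, 58.0 and 61.2 FPKM in DMSO. Every MI-389-titled library lay above every other library, while the sunitinib-titled libraries overlapped DMSO. Its mean level stood at percentile 97.2 of the tested genes in the MI-389-titled libraries, 75.4 in the sunitinib-titled libraries and 72.1 in DMSO. The log2 difference to DMSO was 3.05 (95% interval 2.91 to 3.19) for MI-389, the 49th highest of the 12301 genes, and 0.096 (−0.046 to 0.24) for sunitinib, which passed the threshold after rescaling by medians (0.18), quantiles (0.20) or loess (0.23) and did not after rescaling to the spike-in RNAs (0.096).

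ARRDC4, an alpha-arrestin that like TXNIP restrains glucose uptake, was a low gene in vehicle-treated cells. It had 80.2, 75.4 and 87.2 FPKM in the MI-389-titled libraries, 6.15, 5.36 and 5.20 FPKM in the sunitinib-titled libraries and 7.01, 5.70 and 6.84 FPKM in DMSO. The MI-389-titled libraries were far above the rest, and the sunitinib-titled and DMSO libraries overlapped. The log2 difference to DMSO was 3.45 (95% interval 3.25 to 3.65) for MI-389, the 36th highest of all, and −0.19 (−0.39 to 0.0074) for sunitinib. The MI-389 difference was 2.90 with 5 FPKM and 3.62 with 0.1 FPKM added before the logarithm, in place of 1 FPKM.

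ARRDC3, an alpha-arrestin known for down-regulating beta-adrenergic receptors and integrin beta 4, varied least between the MI-389-titled libraries of the 3. It had 97.5, 96.1 and 96.3 FPKM in the MI-389-titled libraries, 21.9, 20.2 and 20.4 FPKM in the sunitinib-titled libraries and 18.9, 17.3 and 18.2 FPKM in DMSO. Here the sunitinib-titled libraries also lay above all 3 controls, by a much smaller margin. The log2 difference to DMSO was 2.35 (95% interval 2.24 to 2.47) for MI-389, the 89th highest, and 0.19 (0.076 to 0.31) for sunitinib. Its antisense neighbour ARRDC3-AS1 stayed under 1 FPKM, at 0.680 ± 0.173 in the MI-389-titled libraries, 0.554 ± 0.187 in the sunitinib-titled libraries and 0.816 ± 0.197 in DMSO (SD, n = 3 each), far below ARRDC3 in every group.

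ARRDC1, which recruits the ESCRT protein TSG101 to the plasma membrane and drives the budding of vesicles there, stood lower with MI-389. It had 17.7, 18.0 and 18.4 FPKM in the MI-389-titled libraries, 26.5, 26.2 and 25.2 FPKM in the sunitinib-titled libraries and 25.8, 26.1 and 27.1 FPKM in DMSO. The MI-389-titled libraries lay below all others, and the sunitinib-titled libraries overlapped DMSO. The log2 difference to DMSO was −0.52 (95% interval −0.63 to −0.42) for MI-389 and −0.020 (−0.13 to 0.086) for sunitinib, and the sunitinib difference turned positive without sunitinib-titled replicate 3 (0.00064) or DMSO replicate 3 (0.0014), and to 0.067 with median centring, 0.069 after quantile normalization and 0.069 after cyclic loess. ARRDC1-AS1, listed under its older symbol C9orf37, lies on the opposite strand of the ARRDC1 locus and was of similar abundance, with 25.3 ± 0.463 FPKM in the MI-389-titled libraries, 27.4 ± 0.745 FPKM in the sunitinib-titled libraries and 31.4 ± 1.65 FPKM in DMSO (SD, n = 3 each). Reads of this pair cannot be told apart without strand, and their part in the ARRDC1 values was not tested.

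ARRDC2, another alpha-arrestin adaptor, had 17.5, 15.7 and 16.0 FPKM in the MI-389-titled libraries, 15.3, 14.4 and 15.8 FPKM in the sunitinib-titled libraries and 16.9, 20.1 and 17.7 FPKM in DMSO. The sunitinib-titled libraries lay below the controls and the MI-389-titled libraries overlapped them. Its log2 differences to DMSO were −0.14 (95% interval −0.31 to 0.024) for MI-389 and −0.25 (−0.41 to −0.082) for sunitinib. The MI-389 difference passed the threshold after rescaling by medians (−0.22), quantiles (−0.27) or loess (−0.25), and the sunitinib difference then missed it (−0.16, −0.16 and −0.17). After rescaling to the spike-in RNAs it was the other way round, as in the deposited values, with −0.13 for MI-389, which missed the threshold, and −0.25 for sunitinib, which passed.

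**Figure D3:**
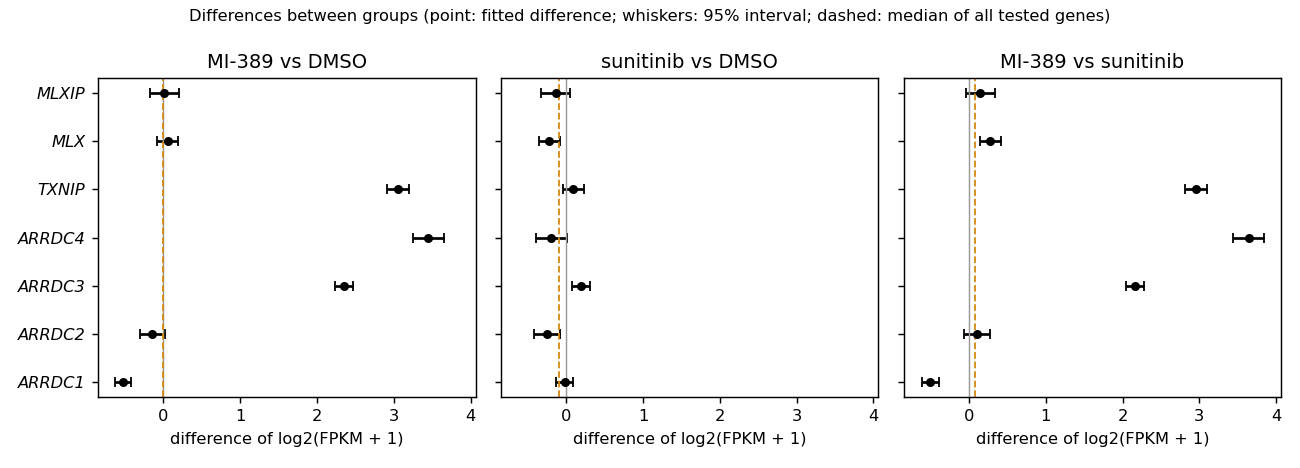
Fitted differences of log2(FPKM + 1) with 95% intervals for each gene in the 3 comparisons; the dashed line is the median of all 12301 tested genes. ARRDC4, TXNIP and ARRDC3 lie between 2.16 and 3.64 in both comparisons that involve the MI-389-titled libraries, and every gene lies within 0.25 of 0 for sunitinib against DMSO.

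The alpha-arrestin genes together differed in amount and in composition. The summed FPKM of TXNIP, ARRDC1, ARRDC2, ARRDC3 and ARRDC4 averaged 696 ± 32.6 in the MI-389-titled libraries, 129 ± 3.96 in the sunitinib-titled libraries and 127 ± 4.52 in DMSO (SD, n = 3 each). TXNIP made up 69.5% ± 0.521 of that sum in the MI-389-titled libraries, 47.7% ± 0.191 in the sunitinib-titled libraries and 45.4% ± 1.41 in DMSO. ARRDC4 was the fourth highest of the 7 genes in the MI-389-titled libraries, and the lowest in the sunitinib-titled libraries and in DMSO.

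**Figure D4:**
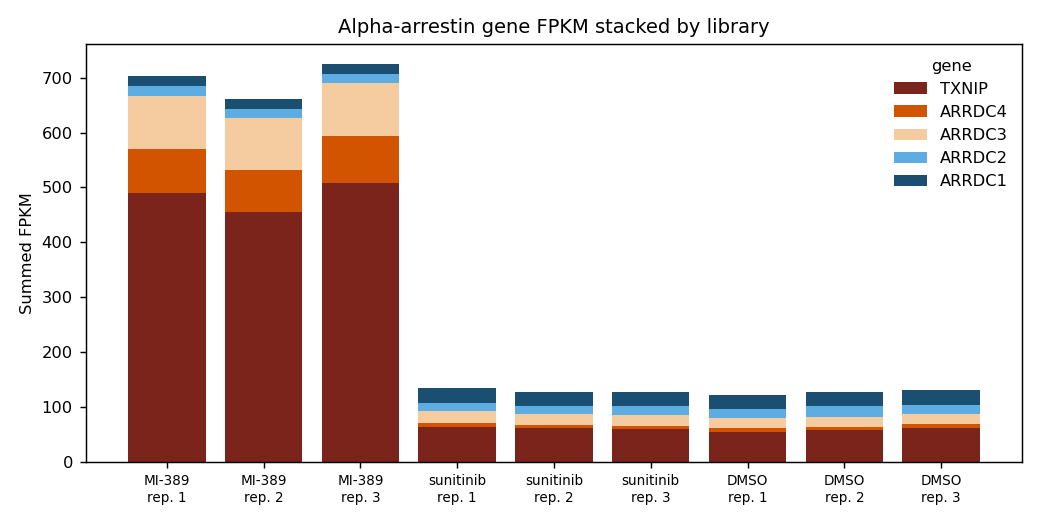
Stacked FPKM of the 5 alpha-arrestin genes in each library (bars start at 0). The MI-389-titled libraries reach 661 to 725 FPKM, with TXNIP as the largest part, against 127 to 134 FPKM in the sunitinib-titled libraries and 122 to 131 FPKM in DMSO.

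In the MI-389-titled libraries the order of levels was TXNIP, MLX, ARRDC3, ARRDC4, ARRDC1, MLXIP and ARRDC2, where the libraries of ARRDC1 and MLXIP, and those of MLXIP and ARRDC2, overlapped. In the sunitinib-titled libraries it was MLX, TXNIP, ARRDC1, ARRDC3, ARRDC2, MLXIP and ARRDC4, where ARRDC2 and MLXIP overlapped. In DMSO it was MLX, TXNIP, ARRDC1, ARRDC2, ARRDC3, MLXIP and ARRDC4, where ARRDC2 and ARRDC3, and ARRDC3 and MLXIP, overlapped. The other neighbours in these orders did not overlap.

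Set directly against each other, the MI-389-titled libraries stood above the sunitinib-titled libraries 7.86-fold for TXNIP, 14.5-fold for ARRDC4 and 4.63-fold for ARRDC3, and 1.44-fold below them for ARRDC1. MLX stood 1.22-fold higher, with a log2 difference of 0.28 (95% interval 0.14 to 0.42) and no overlap of libraries. MLXIP and ARRDC2 overlapped, at 0.15 (−0.040 to 0.34) and 0.11 (−0.060 to 0.27). Both of these turned negative after median centring (−0.015 and −0.059), and likewise by quantiles (−0.058 and −0.11) or loess (−0.043 and −0.087).

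For context, calls were made with limma over all 12301 genes, at a Benjamini-Hochberg adjusted p of 0.05. Between the MI-389-titled libraries and DMSO, 4 of the 7 genes passed, 3 higher and 1 lower, where 56.7% of all genes passed, 28.5% higher and 28.3% lower. The libraries did not overlap for 4 genes, 3 higher and 1 lower, against 60.2% of all genes, 30.5% higher and 29.7% lower. Between the sunitinib-titled libraries and DMSO, 1 gene passed as higher (ARRDC3) and 2 as lower (MLX and ARRDC2), where 19.3% of all genes passed, 2.37% higher and 16.9% lower. Their libraries did not overlap for 3 genes, 1 higher and 2 lower, against 35.2% of all genes, 5.89% higher and 29.3% lower. Between the treated groups, 4 passed as higher and 1 as lower, where 56.3% of all passed, 36.0% higher and 20.3% lower. Their libraries did not overlap for 5 genes, 4 higher and 1 lower, against 69.4% of all genes, 42.5% higher and 27.0% lower. Since the members were chosen with these comparisons in view, nothing is read from the counts. The share of higher genes among all calls depended on the scaling. For MI-389 against DMSO it was 50.2% as deposited, 39.4% with median centring, 45.8% after quantile normalization and 50.7% after cyclic loess. For sunitinib against DMSO it was 12.3% as deposited, 40.5% with median centring, 46.1% after quantile normalization and 48.6% after cyclic loess. Between the treated groups these 4 shares were 63.9%, 40.3%, 46.1% and 50.2%. Rescaling to the spike-in RNAs left the shares near the deposited ones. They were then 50.2% for MI-389 against DMSO, 11.9% for sunitinib against DMSO and 64.4% between the treated groups.

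The 3 calls for sunitinib against DMSO were small and were lost when single libraries were left out. That of MLX was lost without MI-389-titled replicate 1 or 3, any sunitinib-titled replicate, or DMSO replicate 2 or 3, with log2 differences of −0.25 to −0.17. That of ARRDC3 was lost without the same libraries (0.16 to 0.21). The ARRDC2 call was lost without any single library except DMSO replicate 1 (−0.28 to −0.18).

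The pattern of TXNIP, ARRDC4 and ARRDC3 over the 9 libraries was set beside that of 10118 other genes. The measure was the root mean square difference of log2 deviations from each gene's DMSO mean. A gene entered this pool if its FPKM, averaged over all 9 libraries, reached 5. A gene low in DMSO could therefore enter through high MI-389-titled libraries, so the pool was not chosen independently of the contrast described. Whether the nearness of any gene exceeds what this choice gives was not tested. Nearest to TXNIP were SLC30A1, a zinc exporter (0.160), VLDLR, a lipoprotein receptor (0.234), DUSP10, a phosphatase of stress-activated kinases (0.258), and ARRDC4 (0.299). Pearson's r with TXNIP was 0.994, 0.990, 0.991 and 0.996 over the 9 libraries, which all share the high MI-389-titled group. SLC30A1 had 24.4 ± 1.11 FPKM in the MI-389-titled libraries, 2.82 ± 0.0984 FPKM in the sunitinib-titled libraries and 2.26 ± 0.661 FPKM in DMSO (SD, n = 3 each).

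Nearest to ARRDC3 were H1F0, the linker histone H1.0 (0.0558), VEGFA, an angiogenic growth factor (0.0882), ULBP1, a stress ligand of natural killer cells (0.100), and MXD1 (0.102). H1F0 was the more abundant gene, with 225 ± 5.52 FPKM in the MI-389-titled libraries, 50.6 ± 2.26 FPKM in the sunitinib-titled libraries and 43.5 ± 2.29 FPKM in DMSO (SD, n = 3 each). Nearest to ARRDC4 were CD69, an early activation marker of lymphocytes (0.276), TXNIP (0.299), SESN2, a stress-induced restraint on mTORC1 (0.309), and FOS, a subunit of AP-1 (0.353). FOS had 23.4 ± 0.809 FPKM in the MI-389-titled libraries, 0.313 ± 0.0965 FPKM in the sunitinib-titled libraries and 0.483 ± 0.0983 FPKM in DMSO. Adding 1 FPKM before the logarithm lessens the change of a gene that low. FOS, SLC30A1, DUSP10 and MXD1 averaged under 5 FPKM in DMSO (0.483, 2.26, 2.66 and 3.28) and entered the pool through the MI-389-titled libraries. The other named neighbours averaged more in DMSO, from 6.07 FPKM for SESN2 upward. Of the 3 pairs within the trio, TXNIP and ARRDC4 were the nearest, while ARRDC3 and ARRDC4 differed by 0.673, ARRDC4 being only the 121st nearest gene to ARRDC3.

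Genes around this axis were followed in lists that were also chosen with earlier results known, and no test was made of a list as a whole. The counts stand beside the shares over all tested genes. For MI-389 against DMSO these shares were 28.5% higher and 28.3% lower. For sunitinib against DMSO they were 2.37% higher and 16.9% lower. Whether a list differs from all genes was not tested. The MYC-MAX-MLX network holds the leucine zipper factors that compete or pair with MondoA and MLX. Of its 9 tested genes, 3 rose and 4 fell between the MI-389-titled libraries and DMSO, with a median log2 difference of −0.075 against −0.0021 over all genes. MXD1, a repressor that dimerizes with MAX and MLX, rose 6.77-fold to 22.2 ± 0.758 FPKM in the MI-389-titled libraries, against 3.28 ± 0.347 FPKM in DMSO. MXD3 and MXD4, its relatives, fell to 19.7 ± 1.62 and 21.6 ± 0.820 FPKM, against 59.2 ± 5.84 and 36.9 ± 3.39 FPKM in DMSO. MNT, another MAX and MLX partner, fell 1.80-fold. MYC rose 1.30-fold, while MAX fell to 139 ± 4.81 FPKM, against 158 ± 12.1 FPKM in DMSO. The MAX call was lost after cyclic loess (−0.010) and with the 6 compared libraries alone. It was also lost without MI-389-titled replicate 2 or 3 or DMSO replicate 2 or 3 (−0.19 to −0.14). MLXIPL, which encodes ChREBP, the liver counterpart of MondoA, was near the lowest value of the table, at 0.103 FPKM in the MI-389-titled libraries, 0.103 FPKM in the sunitinib-titled libraries and 0.105 FPKM in DMSO.

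Between the sunitinib-titled libraries and DMSO, 1 of the 9 rose and 3 fell, with a median of −0.12 against −0.095 over all genes. The number that rose was 2 with median centring, 2 after quantile normalization and 3 after cyclic loess. MXD4 rose 1.44-fold, MYC fell 1.40-fold and MNT fell 1.37-fold. MXD1, at 3.57 ± 0.362 FPKM in the sunitinib-titled libraries and 3.28 ± 0.347 FPKM in DMSO, did not pass.

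The thioredoxin system holds the protein that TXNIP binds. Of its 9 tested genes 7 fell and 1 rose between the MI-389-titled libraries and DMSO (median −0.43), and 2 rose when rescaled by quantiles or by loess. TXN, thioredoxin itself, fell 1.47-fold to 614 ± 15.4 FPKM in the MI-389-titled libraries, against 900 ± 85.6 FPKM in DMSO, and stood at 808 ± 22.1 FPKM in the sunitinib-titled libraries without passing there. PRDX4 and PRDX1, peroxiredoxins that use thioredoxin to reduce peroxides, fell 1.88-fold and 1.71-fold with MI-389. TXNRD2, the mitochondrial thioredoxin reductase, rose 1.26-fold with MI-389. The ratio of TXN to TXNIP in FPKM was 1.27 ± 0.0441 in the MI-389-titled libraries, 13.1 ± 0.636 in the sunitinib-titled libraries and 15.6 ± 0.578 in DMSO (SD, n = 3 each). Of the same 9 genes, 2 fell and 0 rose with sunitinib in limma (median −0.14), with unadjusted p under 0.05 for 3 lower and 0 higher genes, and 1 rose after median centring, quantile normalization or loess. TXNRD1, the cytosolic thioredoxin reductase, fell to 145 ± 4.23 FPKM in the MI-389-titled libraries and to 145 ± 6.56 FPKM in the sunitinib-titled libraries, against 173 ± 17.3 FPKM in DMSO. The MI-389 call was lost after cyclic loess (−0.068) and without MI-389-titled replicate 2 (−0.23). The sunitinib call was lost without any single library except DMSO replicate 1 (−0.28 to −0.18). It was also lost with no filter on low values, with replicate number as a block, with no variance trend and with the 6 compared libraries alone.

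The next list holds glucose uptake and the steps around glucose 6-phosphate, the signal that MondoA reads. Of 14 tested genes 8 fell and 2 rose in the MI-389-titled libraries (median −0.32), where 1 rose with median centring. In the sunitinib-titled libraries 5 of the 14 fell and 9 did not pass (median −0.16). SLC2A1, the main glucose transporter, fell to 23.5 ± 1.45 FPKM in the MI-389-titled libraries, against 38.8 ± 3.28 FPKM in DMSO, while SLC2A3, the neuronal-type transporter, rose 3.01-fold to 19.4 ± 0.648 FPKM. HK2, an inducible hexokinase that makes glucose 6-phosphate, fell to 24.8 ± 1.98 FPKM in the MI-389-titled libraries and to 31.0 ± 2.05 FPKM in the sunitinib-titled libraries, against 42.5 ± 3.81 FPKM in DMSO. PFKFB3, which makes an activator of glycolysis, fell 2.63-fold with MI-389.

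Of 13 tested genes reported to carry carbohydrate response elements, 2 rose and 7 fell in the MI-389-titled libraries (median −0.27). HK2 and PFKFB3, already counted in the glucose list, are also in this list and among its falls. RGS16, a regulator of G-protein signalling, rose to 13.2 ± 0.851 FPKM, against 2.74 ± 0.357 FPKM in DMSO, and KLF10, a TGF-beta-inducible zinc finger factor, rose 1.55-fold. LDHA, lactate dehydrogenase, fell 1.81-fold and FASN, fatty acid synthase, fell 1.57-fold. In the sunitinib-titled libraries 1 rose and 5 fell, RGS16 among the falls at 1.34 ± 0.231 FPKM. The number that rose there was 2 with median centring, 3 after quantile normalization and 3 after cyclic loess.

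The NEDD4-family ligases are the enzymes that alpha-arrestins bring to their cargo. Of 8 tested genes of these ligases and their adaptors 3 rose and 5 did not pass in the MI-389-titled libraries (median 0.13), while median centring and quantile normalization each placed 1 as lower. In the sunitinib-titled libraries 2 of the 8 fell (median −0.073), of which 1 was left with median centring and 1 with spike-in rescaling, and 1 rose after median centring, quantile normalization or loess. ITCH, the ligase that ubiquitinates TXNIP, rose 1.44-fold to 62.9 ± 2.04 FPKM in the MI-389-titled libraries, against 43.8 ± 3.27 FPKM in DMSO. NEDD4 rose 1.16-fold with MI-389. WWP2 rose 1.17-fold with MI-389, a call lost after quantile normalization (0.096) and cyclic loess (0.11). That call was also lost without MI-389-titled replicate 1 or 3 or DMSO replicate 1 or 2 (0.16 to 0.21). The same held with no filter on low values, with replicate number as a block and with the 6 compared libraries alone. Of 13 ESCRT genes, whose products ARRDC1 engages, 4 rose in the MI-389-titled libraries (median 0.055), and 9 did not pass. Rescaled by quantiles 7 rose and 1 fell, by loess 8 rose and 1 fell, and by medians 4 rose and 3 fell. VPS37B rose 1.72-fold, VPS37A 1.47-fold and TSG101, the ARRDC1 partner, 1.31-fold. With sunitinib 0 ESCRT genes passed in limma and 0 had an unadjusted p under 0.05, while 4 passed as higher after quantile normalization and 4 after cyclic loess.

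Of the 4 other arrestin-type genes tested, 1 rose and 3 fell in the MI-389-titled libraries (median −0.32). ARRB1 and ARRB2, the beta-arrestins that desensitize G-protein coupled receptors, fell 1.34-fold and 1.27-fold in the MI-389-titled libraries. VPS26B, an arrestin-like subunit of retromer, fell 1.25-fold and its paralog VPS26A rose 1.16-fold with MI-389. The VPS26A call was lost without MI-389-titled replicate 1 or 3 or DMSO replicate 1 or 2 (0.17 to 0.20). It was also lost with no filter on low values and with the 6 compared libraries alone. ARRDC5, the remaining alpha-arrestin, was at 0.276 ± 0.138 FPKM in the MI-389-titled libraries, 0.247 ± 0.0674 FPKM in the sunitinib-titled libraries and 0.144 ± 0.0382 FPKM in DMSO, below the filter for testing.

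Of 12 tested genes of energy sensing and other regulators of TXNIP, 4 rose and 3 fell in the MI-389-titled libraries (median 0.060), and 3 fell in the sunitinib-titled libraries (median −0.11), where 1 rose with median centring, 2 after quantile normalization and 3 after cyclic loess. Over the lists, 12 of the 21 sunitinib calls and 9 of the 50 MI-389 calls against DMSO were lost when some single library was left out. FOXO3, a forkhead factor, rose 2.20-fold, EP300, a histone acetyltransferase, 1.92-fold and PRKAB1, a subunit of the energy sensor AMPK, 1.58-fold. HDAC2 and HDAC1, histone deacetylases, fell 1.68-fold and 1.57-fold. DDIT4, a stress-induced brake on mTORC1, did not pass, at 221 ± 19.4 FPKM in the MI-389-titled libraries, 239 ± 8.93 FPKM in the sunitinib-titled libraries and 222 ± 26.5 FPKM in DMSO.

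**Figure D5:**
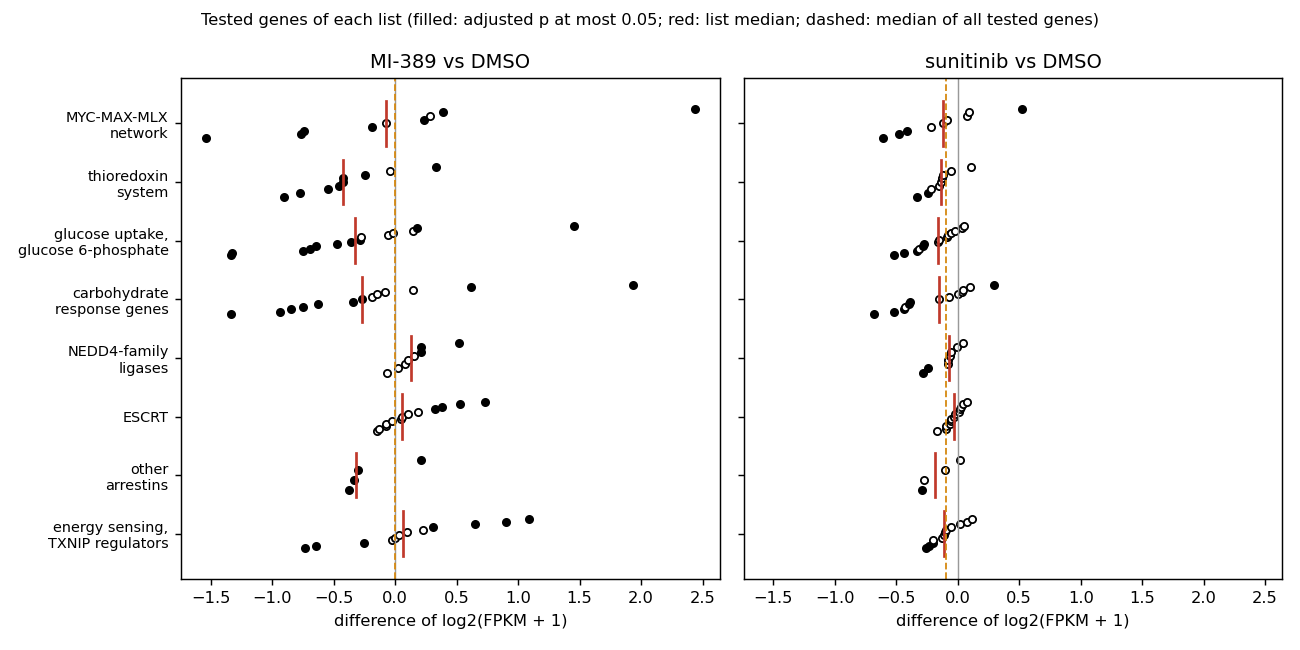
Differences of log2(FPKM + 1) to DMSO for every tested gene of 8 lists, for MI-389 and for sunitinib; filled points passed the adjusted p of 0.05, the red bar is the list median and the dashed line the median of all genes. Single genes such as MXD1, SLC2A3 and RGS16 lie far to the right of their lists for MI-389. The list medians of the thioredoxin, glucose, carbohydrate response and other arrestin lists lie between −0.43 and −0.27 for MI-389.

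The libraries carried the markers of the labelled cell type. All 12 T-lineage markers had a mean of at least 1 FPKM, with sums of 3794 to 4037 FPKM in the MI-389-titled libraries, 4216 to 4472 FPKM in the sunitinib-titled libraries and 3967 to 4987 FPKM in DMSO. None of 6 myeloid markers reached 1 FPKM, and the sums were 1.05 to 1.17 FPKM in the MI-389-titled libraries, 0.990 to 1.28 FPKM in the sunitinib-titled libraries and 1.05 to 1.21 FPKM in DMSO. Of 5 B cell markers CD79A and CD79B exceeded 1 FPKM, with MS4A1 at 0.102 FPKM and PAX5 at 0.103 FPKM on average, and of 7 epithelial and fibroblast markers KRT8 alone did. The B cell markers summed to 10.6 to 11.8 FPKM in the MI-389-titled libraries, 8.97 to 9.65 FPKM in the sunitinib-titled libraries and 11.7 to 12.8 FPKM in DMSO. The table holds no read counts, so the depth of each library is unknown.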

How the data were processed

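Per the labels' protocols, ERCC spike-in RNA was added by cell number and libraries were made from polyA RNA with a Clontech SMARTer kit, a kind that keeps no strand. The submitters' processing notes name HISAT, Cufflinks 2.0.0 and hg19. The counting and scaling steps were not given in the sources used here. All values are FPKM as the authors deposited them, for 23621 genes and 92 spike-ins. Rescaling to the spike-in RNAs moved the all-gene median log2 difference from −0.0953 to −0.0949 for sunitinib against DMSO. For MI-389 against DMSO it moved from −0.0021 to 0.0034. The deposited values thus lay close to the spike-in scale. FPKM gives no depth, so no counting interval is given.

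Genes averaging at least 1 FPKM (12301) were tested on log2(FPKM + 1) by limma 3.58.1 (R 4.3.3), with a model of 3 groups over the 9 libraries, variances shrunk toward a trend, and two-sided p-values adjusted by Benjamini-Hochberg. Folds are ratios of mean FPKM. A log2 difference here understates the change of a low gene. Alternatives were other added constants, filters, scalings, variance models, sample sets and compound names. The members and gene lists were chosen with earlier results of these data known. The text names the members, up to 4 called genes of smallest adjusted p per list and comparison, MYC, MAX, MLXIPL, TXN, TXNRD1, SLC2A1, SLC2A3, HK2, ITCH and NEDD4, and the 4 genes nearest to TXNIP, ARRDC3 and ARRDC4. TXNRD2, FASN, KLF10 (for MI-389 against DMSO), HDAC1, DDIT4, ARRDC5, PSMC3IP, C9orf37 and ARRDC3-AS1 were added after their values were seen. Some genes the rule selects are counted and not named. All 7 members matched the RefSeq promoter table, with 10 windows. Correlations of same-numbered libraries' deviations were −0.042 to 0.11, so the numbers were not taken to pair the libraries. Each MI-389-titled library did correlate best with the sunitinib-titled library of the same number.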

Additional observations from a re-analysis of the deposited data

How the results depend on the processing

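Against DMSO, TXNIP, ARRDC3 and ARRDC4 stood higher and ARRDC1 lower with MI-389, past the threshold, under every alternative that kept the titles: log2 differences were 2.97 to 3.20 for TXNIP, 2.14 to 2.41 for ARRDC3, 2.90 to 3.62 for ARRDC4 and −0.63 to −0.44 for ARRDC1. These genes were chosen with the differences known, and 56.7% of all genes passed for MI-389 against DMSO. Their passing again in the same libraries is therefore no independent evidence. The sunitinib comparison was less stable. Its 2370 called genes became 1423 with no filter on low values, 3677 after quantile normalization, 3814 after cyclic loess and 1225 with the 6 compared libraries alone. Leaving out single libraries gave 929 to 4244, with 1529 without sunitinib-titled replicate 1, 929 without replicate 2, 995 without replicate 3, 4244 without DMSO replicate 1 and 1572 without DMSO replicate 2.

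Median centring gave MI-389 minus DMSO differences of −0.064 for MLXIP, −0.020 for MLX and −0.22 for ARRDC2. Its sunitinib minus DMSO differences were 0.18 for TXNIP, 0.067 for ARRDC1 and −0.16 for ARRDC2, and its MI-389 minus sunitinib differences −0.015 for MLXIP and −0.059 for ARRDC2. Quantile normalization gave −0.12 for MLXIP, 0.13 for MLX and −0.27 for ARRDC2 in the first comparison, 0.20 for TXNIP, 0.069 for ARRDC1 and −0.16 for ARRDC2 in the second, and −0.058 for MLXIP and −0.11 for ARRDC2 in the third. Cyclic loess gave −0.097, 0.16 and −0.25, then 0.23, 0.069 and −0.17, then −0.043 and −0.087 for the same genes. The cause was not tested. The ARRDC2 differences with MI-389, the 2 rescaled MLX differences of 0.13 and 0.16 and the TXNIP differences with sunitinib passed the threshold there.

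For sunitinib against DMSO, calls were lost at unchanged differences: MLX (−0.22) and ARRDC2 (−0.25) with no filter, with the replicate block and with the 6 libraries alone, ARRDC2 (−0.25) with no variance trend, and ARRDC3 (0.19) with spike-in rescaling and with the 6 libraries alone. The replicate block left 244 genes higher and 1697 lower there, and the replicate numbers were not taken to pair the libraries. Leaving out single libraries gave −0.057 to 0.096 for MLXIP with MI-389, and, with sunitinib, −0.28 to −0.17 for MLX, −0.035 to 0.0014 for ARRDC1, −0.30 to −0.18 for ARRDC2 and 0.16 to 0.22 for ARRDC3. Values without ARRDC1's sunitinib-titled replicate 3 and DMSO replicate 3 were 0.00064 and 0.0014, and MLXIP without MI-389-titled replicate 1 and DMSO replicate 1 stood at −0.040 and −0.057.

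Taking compound names from the source field exchanges the treated groups by construction. MI-389 against DMSO then has 2370 called genes. Its differences are −0.14 for MLXIP, −0.22 for MLX, 0.096 for TXNIP, −0.020 for ARRDC1, −0.25 for ARRDC2, 0.19 for ARRDC3 and −0.19 for ARRDC4. Sunitinib against DMSO has 6979 called genes. Its differences are 0.015 for MLXIP, 0.059 for MLX, 3.05 for TXNIP, −0.52 for ARRDC1, −0.14 for ARRDC2, 2.35 for ARRDC3 and 3.45 for ARRDC4. MI-389 minus sunitinib becomes −0.15 for MLXIP, −0.28 for MLX, −2.95 for TXNIP, 0.50 for ARRDC1, −0.11 for ARRDC2, −2.16 for ARRDC3 and −3.64 for ARRDC4. Over all alternatives together, including those that kept the titles, 192 counts of called list genes moved and 996 did not. A count moved if it changed by over 1.5 times or between none and some.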
